A study of Mus musculus with 12 samples.

Results

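Blood and lymphatic endothelial genes were described in the ankle joints of mice with and without serum-transfer arthritis. A list of 34 genes was used, each represented by the array feature annotated with that symbol alone, and every gene had exactly 1 such feature. The list holds 4 transcription factors, 8 surface and secreted proteins, 7 junction genes, 12 signalling genes and 3 lymphatic genes, out of 21789 features with 1 symbol on the Affymetrix Mouse Gene 1.0 ST array, and all 34 were among the features tested. Total RNA came from whole ankle joints of 12 mice, 1 mouse per array and 3 mice in each of 4 groups. Arthritic Mmp8-/- mice and arthritic Mmp8+/+ mice received 150 µl of serum from K/BxN mice, which carries arthritogenic antibodies, intraperitoneally on day 0 and again on day 2. They were killed on day 7, and Mmp8-/- control and Mmp8+/+ control mice had no arthritis. All mice were of the C57BL/6 strain, backcrossed for 12 generations in the methods, which state that the arrays used male mice. The methods give an age of 6 to 8 weeks for mice that received serum and no age for the controls. Mmp8 encodes neutrophil collagenase, and the knockout is constitutive rather than limited to a cell type.

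Endothelial cells line blood and lymphatic vessels. ETS and SoxF transcription factors maintain their identity, VE-cadherin and claudins seal their junctions, and VEGF, Notch, angiopoietin, apelin and sphingosine 1-phosphate signals set their growth and quiescence. Lymphatic endothelium is specified by Prox1 and grows in response to VEGF-C and VEGF-D through Flt4. Inflamed joints are known for new vessel growth in the synovium and for changes in lymphatic drainage.

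Levels are log2 signals on the deposited scale, given for replicates 1, 2 and 3 of a group in that order, and differences are log2 fold changes of arthritic over control mice of the same genotype. The median signal of an array lay between 6.74 and 6.82. Mmp8 itself read 4.64 to 5.54 on 5 of the 6 arrays labelled Mmp8-/-, against 10.21 to 11.16 on the 6 Mmp8+/+ arrays. The array labelled Mmp8-/- control replicate 2 went against its label, with an Mmp8 signal of 10.65. Xist, the RNA that coats the silent X chromosome of females, had a signal of 10.92 on the array labelled Mmp8-/- control replicate 1 and 10.42 on Mmp8+/+ control replicate 1, against 4.66 to 5.41 on the other 10 arrays. The labels give no sex, so the arrays with Xist signal go against the methods rather than a label. The arthritis effects in Mmp8-/- mice and the comparisons between genotypes that use the Mmp8-/- controls thus rest in part on an array whose Mmp8 signal goes against its label, and both genotypes have 1 control with Xist signal. Calls were also counted without these 3 arrays. Cartilage and bone markers of the joint were measured on all arrays, at a mean of 9.30 to 9.85 in arthritic and 9.73 to 10.12 in control mice. In whole joints, fewer cells of a type cannot be told apart from less RNA per cell.

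The endothelial genes did not move as a block. Among the 34 genes, Apln and its receptor Aplnr rose in both genotypes, and Gpihbp1, Ptprb, Tmem100, Flt4 and Mmrn1 fell in both. Pecam1 and Cdh5, which define the endothelium, had intervals that spanned 0 in either genotype. In arthritic Mmp8-/- mice 2 of the 34 genes were higher and 11 lower than in Mmp8-/- control mice at an FDR of 5% (5.88% and 32.4%), where 8.05% and 13.5% of all tested features were. In Mmp8+/+ mice 3 were higher and 5 lower with arthritis (8.82% and 14.7%), where 7.3% and 11.5% of all tested features were. Averaged over the genotypes, which uses all 12 arrays, 6 genes were higher and 12 lower (17.6% and 35.3%), against 19.8% and 22.1% of all tested features. The share of genes that fell in Mmp8+/+ mice and both shares of genes that rose with arthritis within a genotype were thus near the background. With each array's mean subtracted, the features called in Mmp8-/- mice split into 2017 higher and 2194 lower, in place of 1489 and 2489, and the endothelial genes into 3 higher and 11 lower.

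The count of 11 in Mmp8-/- mice rested on single arrays. It was 4 without the array labelled Mmp8-/- control replicate 1 and 6 without arthritic Mmp8-/- replicate 1, where the share of all tested features called lower was also down, to 7.07% and 8.04% in place of 13.5%. It was 7 without arthritic Mmp8-/- replicate 3, where that share was 14.4%. The 5 lower genes of Mmp8+/+ mice were 3 without Mmp8+/+ control replicate 1 and 3 without arthritic Mmp8+/+ replicate 1, where 7.28% and 7.38% of all tested features were called lower, in place of 11.5%. With both arrays that carry Xist signal left out, Gpihbp1, Tmem100 and Mmrn1 fell and Apln and Aplnr rose in each genotype, and no other endothelial gene was called within a genotype. With the array labelled Mmp8-/- control that carries Mmp8 signal left out as well, a lone Mmp8-/- control remained. The same genes were still called in Mmp8+/+ mice in that fit, and the calls in Mmp8-/- mice were lost. With a lone control, its effects in Mmp8-/- mice were -1.26 for Tmem100, -1.80 for Mmrn1, -0.73 for Gpihbp1, 1.10 for Apln and 0.63 for Aplnr. The array labelled Mmp8-/- control replicate 1 was the highest of its group for 19 of the 34 genes.

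The median log2 fold change of the 34 genes was -0.24 in Mmp8-/- mice and 0.03 in Mmp8+/+ mice, beside 0.01 and 0.02 over all tested features. Averaged over the genotypes it was -0.07, and it turned to 0.019 with quantile normalization of the tested features. The sign was shared between the genotypes for 29 of the 34 genes. The 6 arthritic arrays lay wholly above the 6 control arrays for Sox18, Apln and Aplnr (8.82% of the genes, against 7.47% of all features) and wholly below them for Vwf, Clec14a, Gpihbp1, Cldn5, Ptprb, Tmem100, Flt4 and Mmrn1 (23.5%, against 11.8%). For the other 23 genes the arrays overlapped. The SD within groups ran between 0.10 for Erg and Flt1 and 0.57 for Mmrn1, with a median of 0.22.

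**Figure D1:**
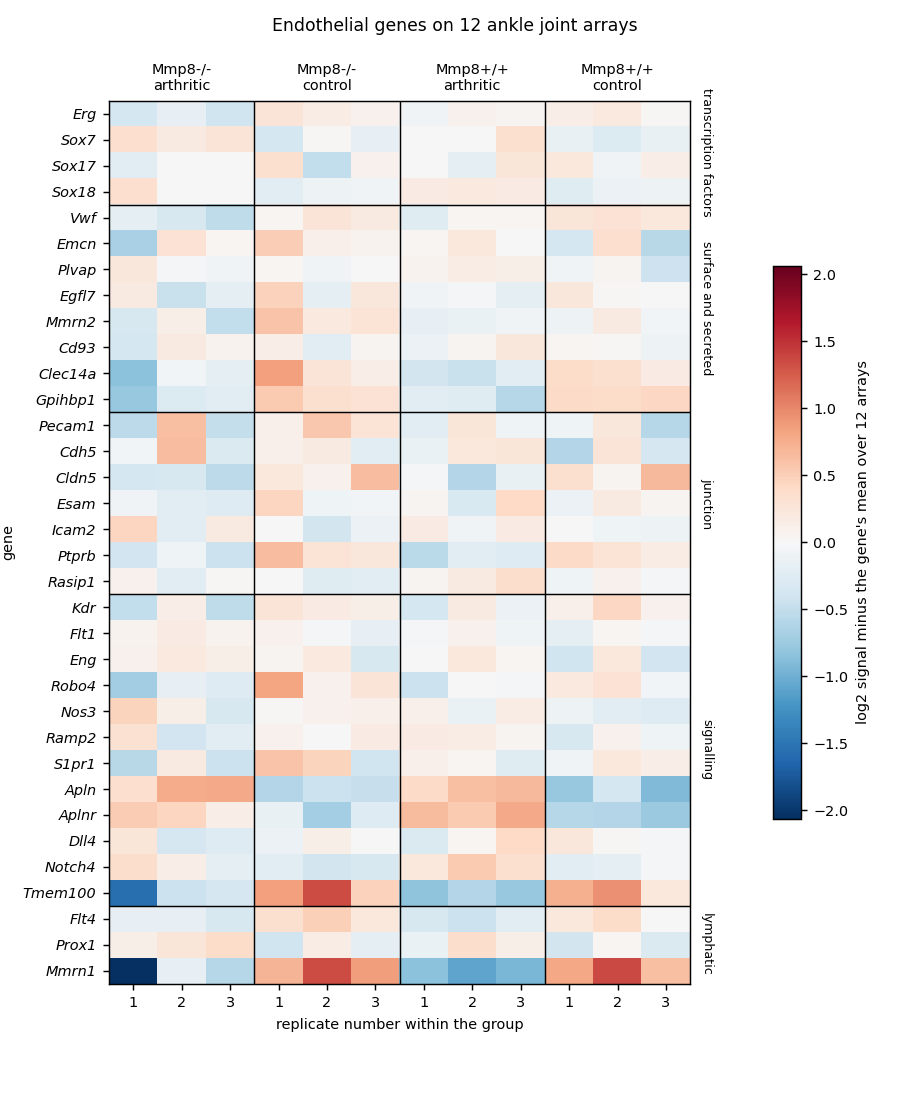
Log2 signal of the 34 endothelial genes (rows, grouped by class) on the 12 arrays (columns, replicates 1 to 3 of each group), drawn as the difference from each gene's mean over the 12 arrays, with red for higher and blue for lower. Tmem100 and Mmrn1 are blue on all 6 arthritic arrays and red on all 6 control arrays, Apln and Aplnr are the reverse, and Pecam1 and Cdh5 vary within every group.

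Apelin and its receptor had the largest rises among the 34 genes. Apln encodes apelin, a peptide made by sprouting tip cells, and Aplnr its G protein-coupled receptor on neighbouring endothelial cells. Apln read 7.93, 8.35 and 8.37 in arthritic Mmp8-/- mice, against 6.99, 7.14 and 7.11 on the arrays labelled Mmp8-/- control. Apln in arthritic Mmp8+/+ mice read 7.98, 8.21 and 8.26, against 6.8, 7.22 and 6.68 in Mmp8+/+ controls. All 6 arthritic arrays were above all 6 control arrays, by 0.71 at the closest. The log2 fold change of Apln was 1.13 (SE 0.18, adjusted p = 0.000613) in Mmp8-/- mice and 1.25 (SE 0.18, adjusted p = 0.000259) in Mmp8+/+ mice, or 2.19-fold and 2.38-fold.

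The log2 signals of Aplnr were 9.37, 9.3 and 8.99 in arthritic Mmp8-/- mice, against 8.7, 8.15 and 8.59 on the arrays labelled Mmp8-/- control. Aplnr stood at 9.5, 9.39 and 9.64 in arthritic Mmp8+/+ mice, against 8.26, 8.24 and 8.09 in Mmp8+/+ controls. Here too the 6 arthritic arrays were the highest 6, and the arrays labelled Mmp8-/- control replicates 1 and 3 were the highest of the controls. The effect was 0.74 (SE 0.17, adjusted p = 0.00862) in Mmp8-/- mice and 1.32 (SE 0.17, adjusted p = 0.000124) in Mmp8+/+ mice. Apln and Aplnr were called in Mmp8+/+ mice under 24 of 24 alternative settings and in Mmp8-/- mice under 23 of 24, the exception being the fit without the 3 arrays named above.

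Tmem100, an arterial membrane protein induced by BMP signalling through the receptor Alk1, had the largest fall of the signalling genes. On the log2 scale Tmem100 was at 8.72, 9.83 and 9.93 in arthritic Mmp8-/- mice, against 11.12, 11.63 and 10.76 on the arrays labelled Mmp8-/- control. For arthritic Mmp8+/+ mice the Tmem100 signals were 9.44, 9.67 and 9.5, against 11.01, 11.22 and 10.5 in Mmp8+/+ controls. The arthritic arrays were all below the controls, with a gap of 0.57, and arthritic Mmp8-/- replicate 1 was the lowest. The effect was -1.68 (SE 0.30, adjusted p = 0.00149) in Mmp8-/- mice and -1.37 (SE 0.30, adjusted p = 0.00526) in Mmp8+/+ mice, so that the signal was 3.2-fold and 2.59-fold lower with arthritis. Eng, the endoglin co-receptor of the same pathway, was not called, at 0.15 (95% interval -0.25 to 0.56) in Mmp8-/- mice and 0.28 (95% interval -0.13 to 0.68) in Mmp8+/+ mice.

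Robo4, a roundabout receptor of quiescent endothelium, fell in Mmp8-/- mice. Robo4 read 7.01, 7.55 and 7.45 in arthritic Mmp8-/- mice, against 8.54, 7.81 and 7.99 on the arrays labelled Mmp8-/- control. Robo4 in arthritic Mmp8+/+ mice read 7.27, 7.72 and 7.7, against 7.92, 8.02 and 7.67 in Mmp8+/+ controls. The array labelled Mmp8-/- control replicate 1 was the highest of the 12, and the arthritic and control arrays of Mmp8+/+ mice overlapped. The effect was -0.78 (SE 0.21, adjusted p = 0.0198) in Mmp8-/- mice and -0.31 (SE 0.21, adjusted p = 0.32) in Mmp8+/+ mice, and the call was lost without the array labelled Mmp8-/- control replicate 1 and without arthritic Mmp8-/- replicate 1.

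Notch4, an endothelial Notch receptor, rose in Mmp8+/+ mice. The log2 signals of Notch4 were 7.85, 7.63 and 7.29 in arthritic Mmp8-/- mice, against 7.28, 7.11 and 7.16 on the arrays labelled Mmp8-/- control. Notch4 stood at 7.71, 8.04 and 7.83 in arthritic Mmp8+/+ mice, against 7.26, 7.3 and 7.45 in Mmp8+/+ controls. In both genotypes the 3 arthritic arrays were above the 3 controls, although in Mmp8-/- mice arthritic replicate 3 (7.29) lay next to the array labelled control replicate 1 (7.28). The effect was 0.41 (SE 0.17, adjusted p = 0.0895) in Mmp8-/- mice and 0.52 (SE 0.17, adjusted p = 0.0394) in Mmp8+/+ mice. The Mmp8+/+ call held under 12 of 24 alternatives, and it was lost without any 1 of the 3 arthritic Mmp8+/+ arrays, Mmp8+/+ control replicate 1 or 2, or the arrays labelled Mmp8-/- control replicate 2 or 3. Dll4, the Notch ligand of tip cells, was at -0.12 (95% interval -0.55 to 0.31) and -0.02 (95% interval -0.45 to 0.40) in Mmp8-/- and Mmp8+/+ mice.

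Of the VEGF receptors, Kdr (VEGFR2), which carries most VEGF-A signalling, averaged -0.39 over the genotypes (adjusted p = 0.0348) but was not called in either alone, at -0.48 (95% interval -0.90 to -0.06) in Mmp8-/- mice and -0.31 (95% interval -0.73 to 0.11) in Mmp8+/+ mice. That call held under 9 of 23 alternatives, and it was lost without Mmp8+/+ control replicate 2, the array labelled Mmp8-/- control replicate 1 or 2, arthritic Mmp8+/+ replicate 1 or 3, or arthritic Mmp8-/- replicate 1 or 3. Without arthritic Mmp8-/- replicate 2, Kdr was called lower in Mmp8-/- mice (-0.70, adjusted p = 0.0212). Flt1 (VEGFR1), which binds VEGF-A as a decoy, was at 0.14 (95% interval -0.16 to 0.44) and 0.05 (95% interval -0.25 to 0.35). Ramp2, which makes the calcitonin receptor-like protein a receptor for adrenomedullin, was not called. On the log2 scale Ramp2 was at 9.84, 9.14 and 9.29 in arthritic Mmp8-/- mice, against 9.62, 9.54 and 9.69 on the arrays labelled Mmp8-/- control. For arthritic Mmp8+/+ mice the Ramp2 signals were 9.69, 9.68 and 9.59, against 9.2, 9.62 and 9.44 in Mmp8+/+ controls. The arthritic and control arrays overlapped in both genotypes, and the effects were -0.19 (95% interval -0.58 to 0.20) and 0.24 (95% interval -0.15 to 0.63). Nos3, the endothelial nitric oxide synthase, and S1pr1, the sphingosine 1-phosphate receptor, were not called either. The effect of S1pr1 was -0.49 (95% interval -1.02 to 0.04) in Mmp8-/- mice and -0.13 (95% interval -0.66 to 0.41) in Mmp8+/+ mice, and it was called lower in Mmp8-/- mice without the array labelled Mmp8-/- control replicate 3 (-0.80, adjusted p = 0.0257). That of Nos3 was 0.00 (95% interval -0.38 to 0.39) and 0.24 (95% interval -0.15 to 0.63).

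**Figure D2:**
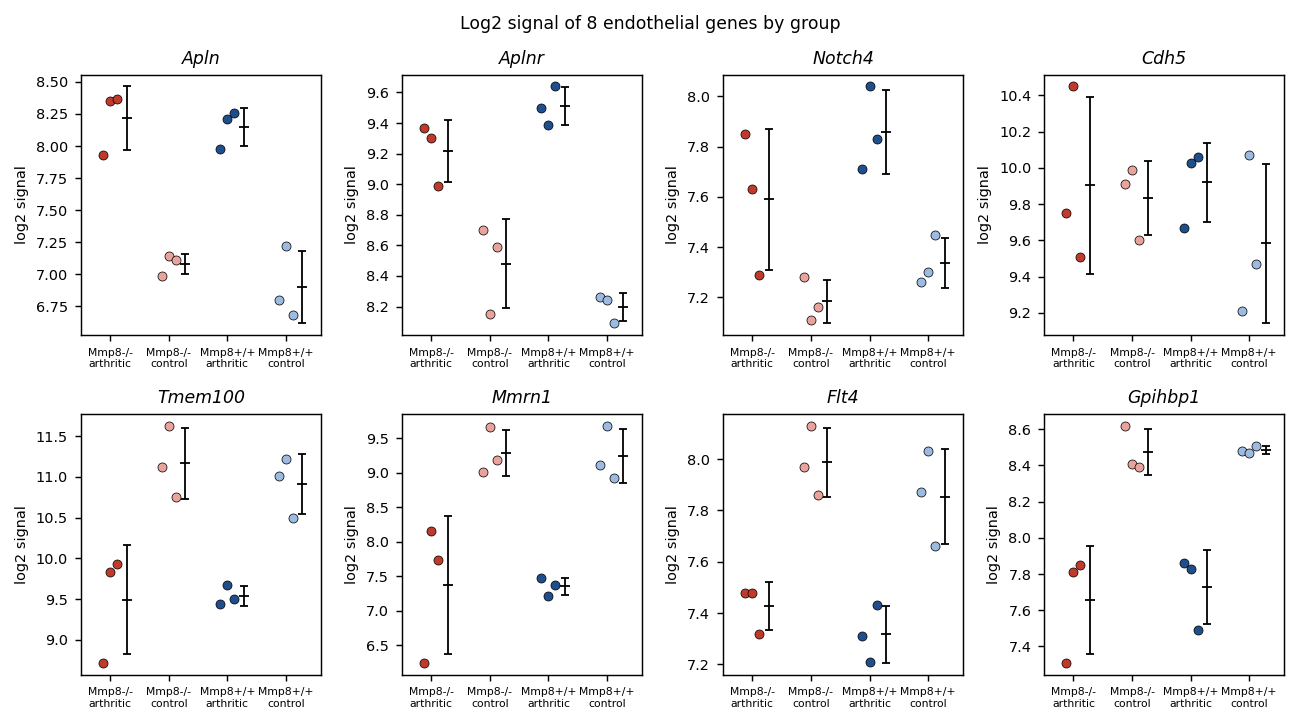
Log2 signal of 8 endothelial genes by group, with 1 point per mouse and the mean and SD of 3 mice as a line with bars. Apln and Aplnr are higher and Tmem100, Mmrn1, Flt4 and Gpihbp1 lower on all arthritic arrays than on any control array, whereas the Cdh5 signals of the 4 groups overlap.

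Among the lymphatic genes, Mmrn1 and Flt4 fell in both genotypes, whereas Prox1 was called in neither genotype alone. Mmrn1 encodes multimerin 1, found in lymphatic endothelium and in platelets. Mmrn1 read 6.25, 8.15 and 7.73 in arthritic Mmp8-/- mice, against 9.01, 9.66 and 9.18 on the arrays labelled Mmp8-/- control. Mmrn1 in arthritic Mmp8+/+ mice read 7.47, 7.22 and 7.37, against 9.11, 9.68 and 8.93 in Mmp8+/+ controls. No arthritic array reached any control array, with a gap of 0.78, and arthritic Mmp8-/- replicate 1 was the lowest array. The effect was -1.91 (SE 0.36, adjusted p = 0.00255) in Mmp8-/- mice and -1.89 (SE 0.36, adjusted p = 0.0025) in Mmp8+/+ mice, or 3.75-fold and 3.71-fold lower, the largest fall among the 34 genes. It held in Mmp8+/+ mice under 24 of 24 alternatives and in Mmp8-/- mice under 23 of 24.

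Flt4 (VEGFR3) is the receptor for VEGF-C and VEGF-D. The log2 signals of Flt4 were 7.48, 7.48 and 7.32 in arthritic Mmp8-/- mice, against 7.97, 8.13 and 7.86 on the arrays labelled Mmp8-/- control. Flt4 stood at 7.31, 7.21 and 7.43 in arthritic Mmp8+/+ mice, against 7.87, 8.03 and 7.66 in Mmp8+/+ controls. All arthritic arrays were below all control arrays. The effect was -0.56 (SE 0.15, adjusted p = 0.0182) in Mmp8-/- mice and -0.54 (SE 0.15, adjusted p = 0.0223) in Mmp8+/+ mice. The Mmp8-/- call was lost without either of the arrays labelled Mmp8-/- control replicates 1 and 2, and the Mmp8+/+ call without control replicate 1 or 2 or arthritic replicate 1 or 2.

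Prox1 is the transcription factor that specifies lymphatic identity. On the log2 scale Prox1 was at 5.78, 5.9 and 6.04 in arthritic Mmp8-/- mice, against 5.25, 5.8 and 5.45 on the arrays labelled Mmp8-/- control. For arthritic Mmp8+/+ mice the Prox1 signals were 5.51, 6.02 and 5.77, against 5.27, 5.7 and 5.36 in Mmp8+/+ controls. The arrays overlapped, and the effect was 0.40 (SE 0.19, adjusted p = 0.128) in Mmp8-/- mice and 0.32 (SE 0.19, adjusted p = 0.238) in Mmp8+/+ mice. Averaged over the genotypes it was 0.36 (SE 0.13, adjusted p = 0.0393), a call that held under 10 of 23 alternatives and was lost without replicate 1 or 3 of either control group or replicate 2 or 3 of either arthritic group. Prox1 is also made outside lymphatic vessels, for example in skeletal muscle, whose 10 markers averaged 8.93 to 10.60 in arthritic and 10.79 to 11.91 in control mice. Of the other lymphatic markers, the hyaluronan receptor Lyve1 fell, at -2.78 and -2.58 on the log2 scale in Mmp8-/- and Mmp8+/+ mice (adjusted p = 5.91e-05 and 9.63e-05) and so did Reln, reelin, at -0.79 and -0.89 (adjusted p = 0.00237 and 0.001). Pdpn, podoplanin, which synovial fibroblasts also express, rose by 1.86 and 2.40 (adjusted p = 0.000351 and 4.08e-05). Some macrophages also express Lyve1, and the 10 macrophage markers averaged 9.80 to 10.15 in arthritic and 9.91 to 10.16 in control mice. The part of these other cells in the lymphatic values was not tested.

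Among the 8 surface and secreted proteins, Gpihbp1, Clec14a, Vwf and Mmrn2 fell in Mmp8-/- mice and Gpihbp1 fell in Mmp8+/+ mice. Gpihbp1 anchors lipoprotein lipase on capillary endothelium. Gpihbp1 read 7.31, 7.81 and 7.85 in arthritic Mmp8-/- mice, against 8.62, 8.41 and 8.39 on the arrays labelled Mmp8-/- control. Gpihbp1 in arthritic Mmp8+/+ mice read 7.86, 7.83 and 7.49, against 8.48, 8.47 and 8.51 in Mmp8+/+ controls. Each arthritic array was below each control array, by 0.53 at the closest pair. The effect was -0.82 (SE 0.17, adjusted p = 0.00492) in Mmp8-/- mice and -0.76 (SE 0.17, adjusted p = 0.00703) in Mmp8+/+ mice, and it was called under 23 and 24 of 24 alternatives.

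Clec14a and Cd93 are related C-type lectin-like receptors that bind Mmrn2, multimerin 2, in the matrix around vessels. The log2 signals of Clec14a were 6.37, 7.17 and 7.04 in arthritic Mmp8-/- mice, against 8.07, 7.49 and 7.36 on the arrays labelled Mmp8-/- control. Clec14a stood at 6.85, 6.77 and 7.0 in arthritic Mmp8+/+ mice, against 7.6, 7.56 and 7.39 in Mmp8+/+ controls. The arthritic arrays were below the controls in both genotypes. The effect was -0.78 (SE 0.22, adjusted p = 0.023) in Mmp8-/- mice and -0.64 (SE 0.22, adjusted p = 0.0544) in Mmp8+/+ mice, just short of the threshold in the second. The Mmp8-/- call was lost without the array labelled Mmp8-/- control replicate 1 and without arthritic Mmp8-/- replicate 1.

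On the log2 scale Mmrn2 was at 8.48, 8.92 and 8.3 in arthritic Mmp8-/- mice, against 9.39, 9.0 and 9.09 on the arrays labelled Mmp8-/- control. For arthritic Mmp8+/+ mice the Mmrn2 signals were 8.64, 8.66 and 8.73, against 8.69, 8.98 and 8.75 in Mmp8+/+ controls. The arthritic arrays were below the controls in Mmp8-/- mice and overlapped them in Mmp8+/+ mice. The effect of Mmrn2 was -0.59 (SE 0.18, adjusted p = 0.0286) and -0.13 (SE 0.18, adjusted p = 0.621). Cd93 was not called in either genotype. Cd93 read 9.63, 10.18 and 10.07 in arthritic Mmp8-/- mice, against 10.13, 9.78 and 10.05 on the arrays labelled Mmp8-/- control. Cd93 in arthritic Mmp8+/+ mice read 9.88, 10.06 and 10.23, against 10.03, 10.02 and 9.89 in Mmp8+/+ controls. All groups overlapped, with effects of -0.03 (95% interval -0.40 to 0.34) and 0.07 (95% interval -0.30 to 0.44). The Mmrn2 call was lost without arthritic Mmp8-/- replicate 1 or 3 and without the array labelled Mmp8-/- control replicate 1.

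Vwf, von Willebrand factor, is stored in endothelial cells and in platelets. The log2 signals of Vwf were 8.32, 8.19 and 8.0 in arthritic Mmp8-/- mice, against 8.56, 8.79 and 8.71 on the arrays labelled Mmp8-/- control. Vwf stood at 8.28, 8.56 and 8.56 in arthritic Mmp8+/+ mice, against 8.77, 8.82 and 8.75 in Mmp8+/+ controls. The highest arthritic and the lowest control arrays were 0.002 apart and read the same after rounding. The effect was -0.52 (SE 0.15, adjusted p = 0.0245) in Mmp8-/- mice and -0.31 (SE 0.15, adjusted p = 0.15) in Mmp8+/+ mice, and the Mmp8-/- call was lost without the array labelled Mmp8-/- control replicate 2 or 3 or without arthritic Mmp8-/- replicate 3. The 6 platelet and megakaryocyte markers on the array averaged 8.16 to 8.47 in arthritic Mmp8-/- mice, against 8.44 to 9.22 on the arrays labelled Mmp8-/- control. They averaged 7.73 to 8.49 in arthritic Mmp8+/+ mice, against 9.31 to 9.43 in Mmp8+/+ controls. Of these 6 markers, 2 fell in Mmp8-/- and 4 in Mmp8+/+ mice, where 13.5% and 11.5% of all tested features did. The part of platelets and megakaryocytes in the values of Vwf, Mmrn1 and Pecam1, which platelets also carry, was not tested. Of the remaining surface and secreted genes, Emcn (endomucin), Plvap (a protein of capillary diaphragms) and Egfl7 were not called, with effects between -0.34 and 0.06 in Mmp8-/- mice and between -0.19 and 0.28 in Mmp8+/+ mice.

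Among the 7 junction genes, Ptprb fell in both genotypes and Cldn5 in Mmp8-/- mice. Ptprb is the endothelial phosphatase VE-PTP, which acts on VE-cadherin complexes and on the receptor Tie2. On the log2 scale Ptprb was at 8.43, 8.73 and 8.37 in arthritic Mmp8-/- mice, against 9.45, 9.1 and 9.05 on the arrays labelled Mmp8-/- control. For arthritic Mmp8+/+ mice the Ptprb signals were 8.27, 8.6 and 8.55, against 9.21, 9.11 and 8.98 in Mmp8+/+ controls. The arthritic arrays were all below the control arrays. The effect was -0.69 (SE 0.17, adjusted p = 0.0108) in Mmp8-/- mice and -0.63 (SE 0.17, adjusted p = 0.0171) in Mmp8+/+ mice. The Mmp8-/- call was lost without the array labelled Mmp8-/- control replicate 1, and the Mmp8+/+ call without Mmp8+/+ control replicate 1 or arthritic Mmp8+/+ replicate 1.

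Cldn5 encodes claudin 5 of endothelial tight junctions. Cldn5 read 7.8, 7.83 and 7.62 in arthritic Mmp8-/- mice, against 8.37, 8.25 and 8.8 on the arrays labelled Mmp8-/- control. Cldn5 in arthritic Mmp8+/+ mice read 8.14, 7.56 and 8.01, against 8.49, 8.21 and 8.82 in Mmp8+/+ controls. No arthritic array reached a control array, although the closest were 0.070 apart. The effect was -0.72 (SE 0.20, adjusted p = 0.0229) and -0.60 (SE 0.20, adjusted p = 0.0522) in the 2 genotypes, Mmp8-/- and Mmp8+/+, and averaged over them Cldn5 was called under 23 of 23 alternatives. The Mmp8-/- call was lost without either of the arrays labelled Mmp8-/- control replicates 1 and 3 and without arthritic Mmp8-/- replicate 1 or 3.

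Pecam1 (CD31), the adhesion molecule by which endothelium is commonly identified, was not called. The log2 signals of Pecam1 were 9.67, 10.82 and 9.71 in arthritic Mmp8-/- mice, against 10.31, 10.76 and 10.48 on the arrays labelled Mmp8-/- control. Pecam1 stood at 9.99, 10.45 and 10.11 in arthritic Mmp8+/+ mice, against 10.11, 10.44 and 9.62 in Mmp8+/+ controls. The range of each arthritic group overlapped that of its controls, and arthritic Mmp8-/- replicate 2 was the highest of all arrays. The effect was -0.45 (95% interval -1.05 to 0.15) in Mmp8-/- mice and 0.12 (95% interval -0.48 to 0.72) in Mmp8+/+ mice, and without arthritic Mmp8-/- replicate 2 Pecam1 was called lower in Mmp8-/- mice (-0.83, adjusted p = 0.0258). Cdh5, VE-cadherin, was at 0.07 (95% interval -0.47 to 0.61) and 0.34 (95% interval -0.20 to 0.88). The adhesion molecules Esam and Icam2 and the Rap1 effector Rasip1 were not called, with effects between -0.29 and 0.30 in Mmp8-/- mice and between 0.01 and 0.21 in Mmp8+/+ mice. The lowest and highest bounds of their intervals were -0.71 and 0.68.

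Of the 4 transcription factors, Erg fell in Mmp8-/- mice and on average over the genotypes, Sox7 and Sox18 rose on average, and Sox17 was not called. Erg is the ETS factor that keeps endothelial identity. On the log2 scale Erg was at 8.52, 8.72 and 8.48 in arthritic Mmp8-/- mice, against 9.16, 9.04 and 8.98 on the arrays labelled Mmp8-/- control. For arthritic Mmp8+/+ mice the Erg signals were 8.82, 8.98 and 8.95, against 9.02, 9.09 and 8.92 in Mmp8+/+ controls. In Mmp8-/- mice the arthritic arrays were all below the controls, whereas the Mmp8+/+ groups overlapped. The effect was -0.49 (SE 0.14, adjusted p = 0.0246) in Mmp8-/- mice and -0.09 (SE 0.14, adjusted p = 0.662) in Mmp8+/+ mice, and the Mmp8-/- call held under 14 of 24 alternatives. It was lost without the array labelled Mmp8-/- control replicate 1 or 2 and without arthritic Mmp8-/- replicate 1 or 3.

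Sox7, Sox17 and Sox18 form the SoxF group. Sox18 read 9.25, 8.88 and 8.91 in arthritic Mmp8-/- mice, against 8.66, 8.79 and 8.83 on the arrays labelled Mmp8-/- control. Sox18 in arthritic Mmp8+/+ mice read 9.06, 9.09 and 9.07, against 8.65, 8.77 and 8.79 in Mmp8+/+ controls. The arthritic arrays were above the controls by a gap of 0.051. Sox18 was called in the average over the genotypes, at 0.29 (SE 0.10, adjusted p = 0.0321), and in neither genotype alone, except in Mmp8+/+ mice with array weights (adjusted p = 0.0498), with effects of 0.25 (95% interval -0.06 to 0.56) in Mmp8-/- mice and 0.34 (95% interval 0.03 to 0.65) in Mmp8+/+ mice. Sox7 averaged 0.37 (SE 0.11, adjusted p = 0.0169), and its effects within a genotype were 0.44 (95% interval 0.10 to 0.77) and 0.30 (95% interval -0.04 to 0.63). Neither call held with both arrays that carry Xist signal left out (adjusted p = 0.148 for Sox18 and 0.0751 for Sox7). The Sox18 call was also lost without the array labelled Mmp8-/- control replicate 1 or 2, Mmp8+/+ control replicate 1, arthritic Mmp8-/- replicate 1 or any 1 of the 3 arthritic Mmp8+/+ arrays. Sox17 was at -0.05 (95% interval -0.48 to 0.38) and -0.07 (95% interval -0.50 to 0.36).

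**Figure D3:**
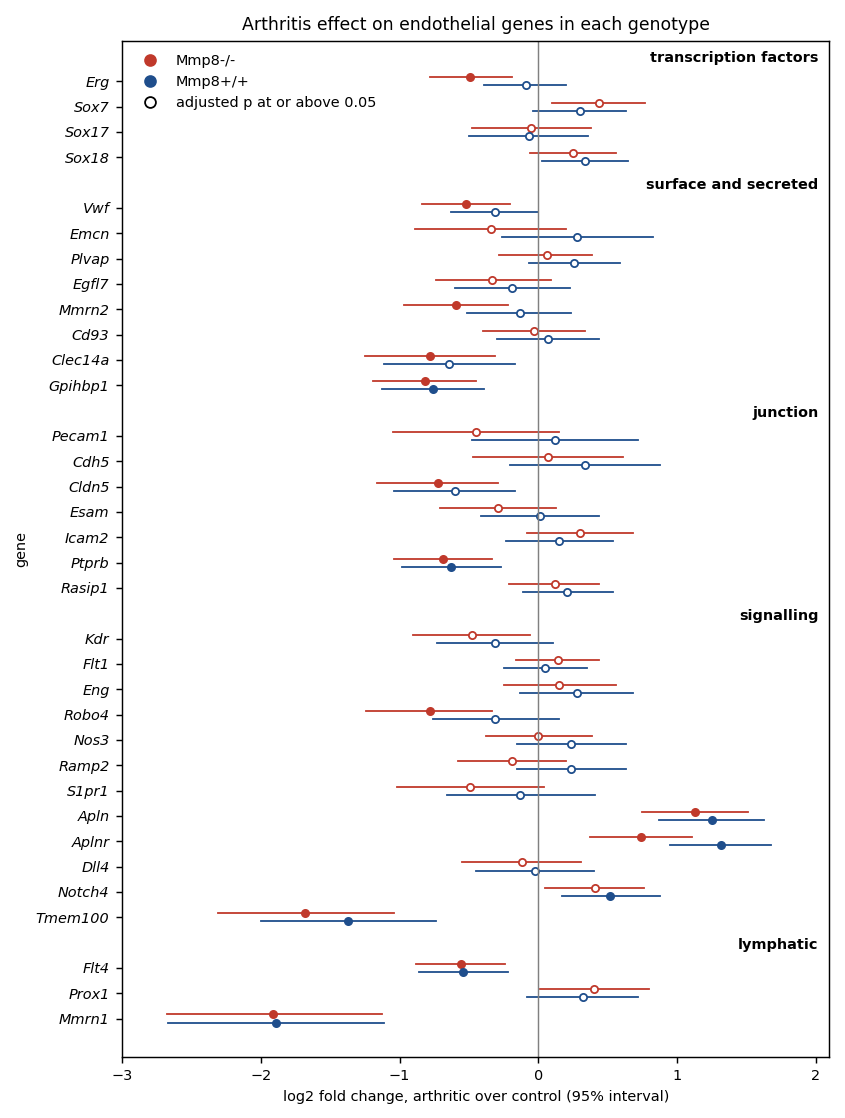
Log2 fold change of arthritic over control mice for the 34 endothelial genes, with 95% intervals from limma, in Mmp8-/- mice (red) and Mmp8+/+ mice (blue), filled where the adjusted p is under 0.05. Filled points of both genotypes lie to the right for Apln and Aplnr and to the left for Gpihbp1, Ptprb, Tmem100, Flt4 and Mmrn1.

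The genotypes were compared directly. Between arthritic Mmp8-/- and arthritic Mmp8+/+ mice, 0 of the 34 genes passed an FDR of 5% in limma, where 0.00541% of all tested features did, and 1 gene had an unadjusted p below 0.05 (537 of all features). That gene was Erg, at -0.34 (95% interval -0.64 to -0.05) with an unadjusted p of 0.0268 and lower in arthritic Mmp8-/- mice. Between arrays labelled Mmp8-/- control and Mmp8+/+ controls, 0 genes passed (0.0% of all features) and 0 had an unadjusted p below 0.05 (600 of all features). Ordinary linear regression also called 0 of the 34 genes in each of these comparisons. Without the array labelled Mmp8-/- control that carries Mmp8 signal, 0 genes passed in either comparison, and Mmrn2 and Aplnr had an unadjusted p below 0.05 between the controls.

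The arthritis effect in Mmp8-/- mice minus that in Mmp8+/+ mice was negative for 29 of the 34 genes, with a median of -0.13 beside -0.01 over all features, and 0 genes passed an FDR of 5% (0.0% of all features). A gene called in 1 genotype alone was therefore not shown to differ between them. By limma 1 gene, Aplnr, had an unadjusted p below 0.05, at -0.58 (95% interval -1.09 to -0.06), without passing the FDR. Over all features, 588 had an unadjusted p below 0.05. The largest differences otherwise were those of Emcn, -0.63 (95% interval -1.40 to 0.15), and Pecam1, -0.57 (95% interval -1.42 to 0.28). For genes called in Mmp8-/- mice alone the difference was -0.47 (95% interval -1.11 to 0.17) for Robo4, -0.46 (95% interval -0.99 to 0.07) for Mmrn2 and -0.39 (95% interval -0.81 to 0.03) for Erg. All of these intervals except that of Aplnr reached 0. Without the array labelled Mmp8-/- control that carries Mmp8 signal, the difference was negative for 28 of the 34 genes with a median of -0.19, and without all 3 arrays it was negative for 20 with a median of -0.08. In both fits 0 genes passed and 1, Aplnr, had an unadjusted p below 0.05, at -0.74 and -0.72. Markers of other cells differed in the same comparison. The median difference was -1.31 for 9 keratinocyte markers (9 negative), -0.31 for 10 fibroblast markers (10 negative), 1.14 for 5 erythroid markers (5 positive) and 0.68 for 6 platelet and megakaryocyte markers (6 positive), and none of these markers passed an FDR of 5%. Krtdap, a keratinocyte gene, was the 1 feature called between the arthritic genotypes, at -1.83 (adjusted p = 0.0207). The keratinocyte markers averaged 7.55 to 7.88 in arthritic Mmp8-/- mice, against 7.74 to 9.38 on the arrays labelled Mmp8-/- control. They averaged 8.71 to 9.50 in arthritic Mmp8+/+ mice, against 7.97 to 9.25 in Mmp8+/+ controls. Their part in the differences of the endothelial genes was not tested.

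The ligands, receptors and targets that work with these genes were counted in a further list of 54 genes. With arthritis, 1 was higher and 15 lower in Mmp8-/- mice, where 8.05% and 13.5% of all tested features were, and 4 were higher and 11 lower in Mmp8+/+ mice, where 7.3% and 11.5% were, with median log2 fold changes of -0.28 and -0.17. Lpl, the lipase that Gpihbp1 carries to the capillary lumen, fell, at -2.31 in Mmp8-/- and -2.21 in Mmp8+/+ mice on the log2 scale (adjusted p = 9.44e-05 and 0.000125). Adipocytes are a main source of Lpl, and all 8 adipocyte markers, Lpl among them, fell in both genotypes, their mean being 7.29 to 8.02 in arthritic and 9.17 to 10.13 in control mice. Their part in the values of Lpl and Gpihbp1 was not tested. Mef2c, a transcription factor of endothelium and of muscle, fell, at -1.85 and -1.45 (adjusted p = 0.000197 and 0.00128), and Hes1, a Notch target, fell, at -0.86 and -1.02 (adjusted p = 0.0378 and 0.0181). Ramp1, a partner of the calcitonin receptor-like protein, fell, at -0.73 and -1.06 (adjusted p = 0.0139 and 0.00134), and Angpt1, the ligand of Tie2 made by mural cells, fell, at -0.90 and -0.80 (adjusted p = 0.0183 and 0.0324). Sphk1, which makes the ligand of S1pr1, rose by 1.21 and 0.88 (adjusted p = 0.000874 and 0.0068).

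Further partners of the endothelial genes were named after their values were seen. Tek (Tie2), the receptor on which Ptprb acts, fell, at -0.94 in Mmp8-/- and -0.62 in Mmp8+/+ mice (adjusted p = 0.00237 and 0.0251). The slit proteins, guidance ligands of the roundabout receptor family, also fell, Slit2 at -0.56 and -0.72 (adjusted p = 0.0452 and 0.0161) and Slit3 at -0.80 and -0.69 (adjusted p = 0.00944 and 0.0207). For Flt4, the ligand Vegfd, annotated as Figf, was at 0.74 in Mmp8-/- mice (adjusted p = 0.121) and rose by 1.45 in Mmp8+/+ mice (adjusted p = 0.00786). Vegfc was at -0.57 and -0.55 (adjusted p = 0.127 and 0.157). Vegfa, the ligand of Kdr and Flt1, was at -0.13 and -0.38 (adjusted p = 0.565 and 0.115).

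**Figure D4:**
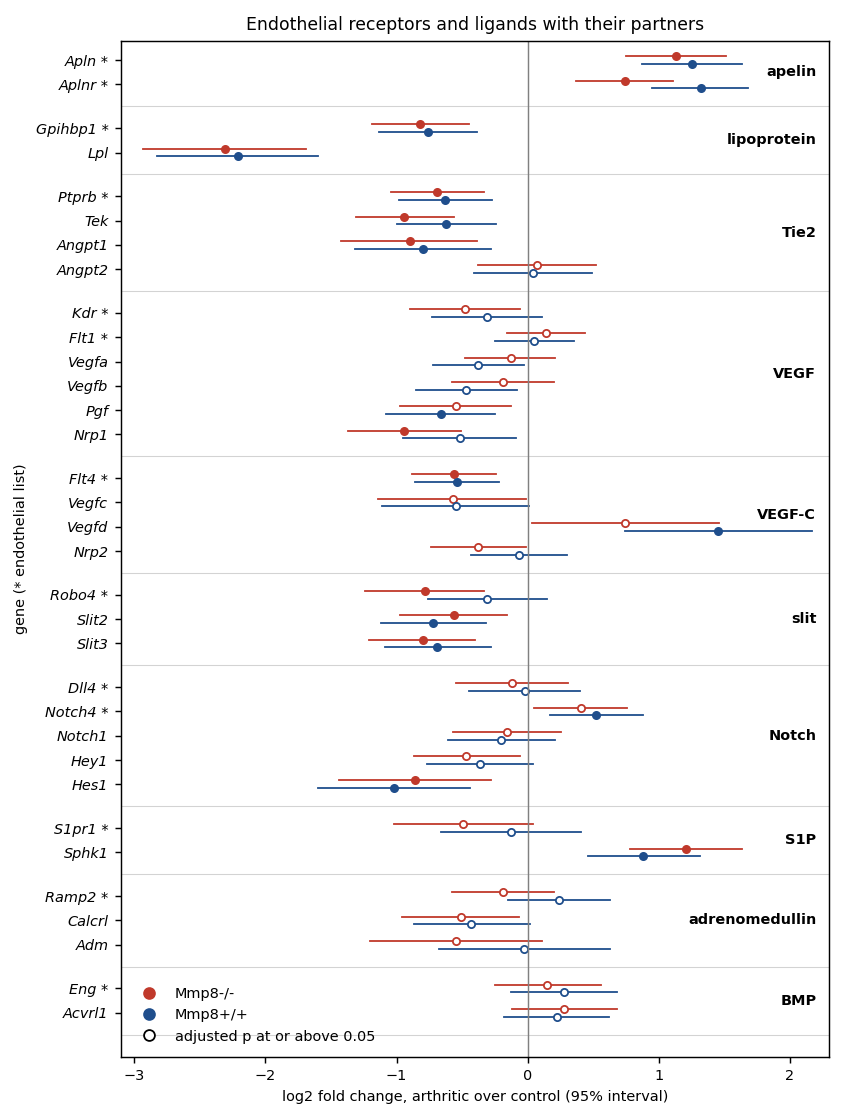
Log2 fold change of arthritic over control mice with 95% intervals for endothelial genes of the list (asterisk) and genes of the same pathways, in Mmp8-/- mice (red) and Mmp8+/+ mice (blue), filled where the adjusted p is under 0.05. Apln and Aplnr rose together, Gpihbp1 and Lpl, Ptprb and Tek fell together in both genotypes, and Flt4 was lower while Vegfd was at 0.74 and 1.45.

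Some markers of the cells around vessels also fell. Of 10 mural cell markers, 4 fell in Mmp8-/- and 3 in Mmp8+/+ mice, where 13.5% and 11.5% of all tested features did, and 0 rose. The other 6 and 7 did not pass the test. The mean of all 10 mural cell markers was 8.83 to 9.02 in arthritic mice and 9.44 to 9.65 in control mice. The pericyte gene Rgs5 fell, at -1.30 and -1.13 (adjusted p = 0.00435 and 0.00957) and the smooth muscle myosin Myh11 fell, at -1.84 and -1.78 (adjusted p = 1.68e-05 and 2.01e-05) in Mmp8-/- and Mmp8+/+ mice. The mean of the 34 endothelial genes was 8.23 to 8.46 in arthritic and 8.36 to 8.63 in control mice, so that their ranges overlapped where those of mural cells, adipocytes and muscle did not. Of 4 markers of activated venules on the array, 1 rose and 1 fell in Mmp8-/- mice (8.05% and 13.5% of all tested features). In Mmp8+/+ mice 0 rose and 1 fell (7.3% and 11.5%). Sele, E-selectin, rose in Mmp8-/- mice by 0.65 (adjusted p = 0.032) and was at 0.17 in Mmp8+/+ mice. Ackr1, the chemokine receptor of venules, fell, at -1.16 and -0.72 (adjusted p = 0.0012 and 0.0208). The adhesion molecules Vcam1 and Icam1 were called in neither genotype alone. Averaged over the genotypes, 2 of the 4 markers rose and 2 fell, where 19.8% and 22.1% of all tested features did. Fibroblast markers averaged 11.99 to 12.26 in arthritic and 11.79 to 12.15 in control mice. The part of these shifts in the endothelial values was not tested.

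**Figure D5:**
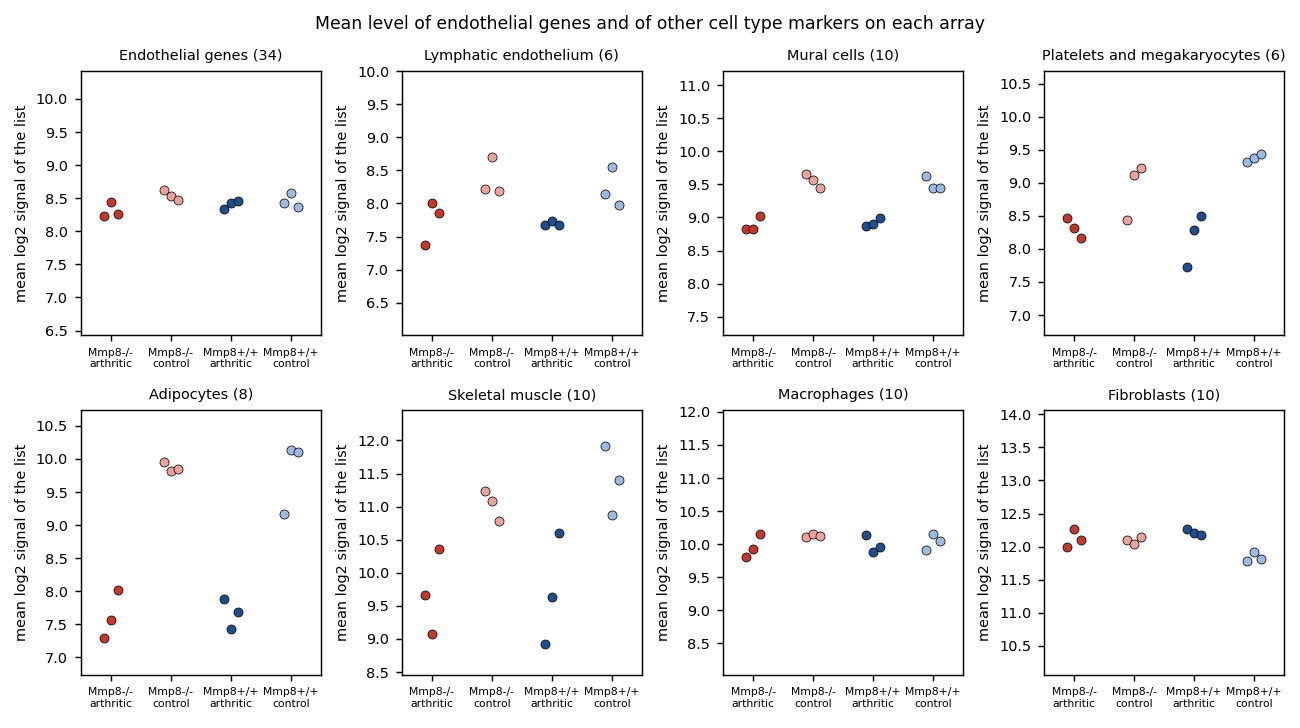
Mean log2 signal of the 34 endothelial genes and of 7 lists of marker genes (number of genes in brackets) on each array, 1 point per mouse, with all axes spanning the same range of log2 signal. Adipocyte, muscle and mural cell means are lower on every arthritic array than on any control array, while the endothelial means overlap.

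Promoter sequences were read for 16 of the 34 genes, with 21 windows of 300 bases, each 250 bases before to 50 after a RefSeq start on GRCm38.p6. The windows of Apln, Flt4 and Mmrn1 are shown because these are the genes with a window that moved in both genotypes. Capitals mark an ETS core (AGGAAG, searched on both strands) in Apln and a SOX core (ACAAT, both strands) in Mmrn1.
Apln, chrX:48034804-48035103, minus strand: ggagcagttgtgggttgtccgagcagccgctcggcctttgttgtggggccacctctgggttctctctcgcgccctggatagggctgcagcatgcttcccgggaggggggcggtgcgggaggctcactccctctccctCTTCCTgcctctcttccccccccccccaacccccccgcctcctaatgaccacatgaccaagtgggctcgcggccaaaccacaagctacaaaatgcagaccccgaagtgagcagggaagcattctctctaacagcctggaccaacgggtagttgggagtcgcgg
Flt4, chr11:49609429-49609728, plus strand: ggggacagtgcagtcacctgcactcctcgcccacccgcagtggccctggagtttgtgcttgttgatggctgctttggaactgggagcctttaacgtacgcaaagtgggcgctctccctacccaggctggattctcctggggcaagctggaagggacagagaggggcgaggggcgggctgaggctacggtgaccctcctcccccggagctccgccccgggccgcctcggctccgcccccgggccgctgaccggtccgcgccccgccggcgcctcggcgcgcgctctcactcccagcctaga
Mmrn1, chr6:60944067-60944366, plus strand: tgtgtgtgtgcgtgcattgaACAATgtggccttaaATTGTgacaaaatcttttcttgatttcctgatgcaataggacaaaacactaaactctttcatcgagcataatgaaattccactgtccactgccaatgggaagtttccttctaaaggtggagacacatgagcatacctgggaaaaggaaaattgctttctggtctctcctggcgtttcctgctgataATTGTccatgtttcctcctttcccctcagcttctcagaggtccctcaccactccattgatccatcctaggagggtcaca
Counted from 1 at the 5′ end of the window, the ETS match of Apln starts at position 138 and the 3 SOX matches of Mmrn1 at positions 21, 36 and 222. The Flt4 window holds neither AGGAAG nor ACAAT, and none of the 3 windows holds ACGTG, the letters searched as a hypoxia core (both strands). Other forms of these sites were not searched. The ETS core was in 10 of the 21 windows (47.6%) and 9 of the 16 genes, beside 35.4% of 32851 windows of mouse genes. These windows leave out 1 chromosome, which holds none of the 34 genes. The SOX core was in 6 windows (28.6%, beside 31.0%) and the hypoxia core in 1 (4.76%, beside 19.6%). A match describes letters only, and no 2 matches overlap in the windows shown. Close neighbours in the genome were Icam2 with Pecam1 on chromosome 11 and Robo4 with Esam on chromosome 9, each with 2 other genes between them.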

How the data were processed

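Total RNA of 12 whole ankle joints was hybridised to Affymetrix Mouse Gene 1.0 ST arrays by the authors, who deposited log2 signals processed by the Robust Multichip Average method (RMA), with Partek also named in the processing notes. RMA corrects background, makes the array distributions equal and summarises probes, so that general shifts in RNA amount are removed and changes of dim features are compressed. The table holds 28853 features and 12 columns, 0 of them unassigned. The array annotation gave 1 symbol to 21789 features, several to 1621 and none to 5443. Tested were the 18495 features with 1 symbol and the highest mean (at least 4.93), 18495 being the number the authors kept.

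Limma 3.58.1 (R 4.3.3) was fitted with 1 mean per group over all 12 arrays (8 residual degrees of freedom), which share 1 estimate of the spread, and p-values were adjusted by Benjamini-Hochberg over the tested features, with an FDR of 5%. The comparisons were arthritic against control in each genotype and on average, Mmp8-/- against Mmp8+/+, and the difference of the arthritis effects. Limma on the compared groups, ordinary regression, trended moderation, array weights, no filter, array mean subtraction, quantile normalization, Xist status as a covariate, arrays left out and an FDR of 1% were tried as alternatives, and a filter ranking features with several symbols too was chosen after seeing the data. Counts of alternatives do not include the FDR of 1%. They include the fit without the array labelled Mmp8-/- control replicate 2 both as the array with Mmp8 signal and as a single array left out. Single arrays of either genotype were left out in turn. The fitting code was also run on simulated data, which does not test the calls made here. The endothelial genes and the lists of pathway and marker genes were chosen with earlier results of these data known, so no test was made of a list. Values on all arrays were given for up to 4 called genes of each class with the largest average effect, for genes called in the opposite direction, for the uncalled gene of the highest mean signal and for the lymphatic genes. Pathway genes were named where they were among the 6 largest effects called in both genotypes. Replicates are separate mice, numbered in the order of the submission. Promoter windows came from RefSeq (GRCm38.p6) and matched by symbol. The number of arrays limits the precision, and the median standard error of a fold change was 0.18.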

Additional observations from a re-analysis of the deposited data

How the results depend on the processing

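The 34 endothelial genes gave 2163 values that kept direction and call under the alternatives, 158 that lost a call and 23 that gained one. A further 70 values, called neither in the main fit nor in the alternative, changed sign. No called value changed sign. The 5 genes lower with arthritis in Mmp8+/+ mice became 3 with both arrays that carry Xist signal left out (6.82% of all features, in place of 11.5%), 3 with the array labelled Mmp8-/- control that carries Mmp8 signal also left out (6.22%), and 3 at an FDR of 1% (5.7%), and ran from 3 to 7 with single arrays left out. In Mmp8-/- mice the 11 lower genes became 7 with the compared groups alone (10% of all features, in place of 13.5%), 7 with ordinary regression (8.91%), 6 with quantile normalization (10.5%), 7 with Xist status as a covariate (9.61%), 3 with the Xist arrays left out (6.72%), 0 with the 3 arrays left out (1.83%) and 3 at an FDR of 1% (5.96%), so that the share of all features was down as well, and ran from 4 to 13 with single arrays left out. The fit without the 3 arrays leaves a lone Mmp8-/- control, assumed to vary like the other groups. The 2 higher genes in Mmp8-/- mice became 4 with quantile normalization and 0 with the 3 arrays left out. Averaged over the genotypes, the 6 higher genes became 3 with Xist status as a covariate (12.2% of all features, in place of 19.8%), 3 with the Xist arrays left out (10.5%) and 3 at an FDR of 1% (9.14%). The 12 lower genes became 8 with quantile normalization (17.7%, in place of 22.1%) and 8 with Xist status as a covariate (16.8%). They became 8 with the Xist arrays left out (15.5%) and 8 at an FDR of 1% (14.4%). Fewer genes were called in either direction with the 3 arrays left out. The median log2 fold change of the genes moved with quantile normalization to 0.155 in Mmp8+/+ mice, in place of 0.033, and to -0.081 in Mmp8-/- mice, in place of -0.241, where it was -0.147 with the 3 arrays left out. Quantile normalization called 10.2% of all features higher and 10.5% lower in Mmp8-/- mice, in place of 8.05% and 13.5%. Calls gained in Mmp8+/+ mice were Clec14a and Cldn5 (each under 5 of 24 alternatives) and Sox18 (1 of 24), and in Mmp8-/- mice Sox7 and Notch4 (2 of 24 each) and Pecam1, Kdr and S1pr1 (1 of 24 each). The cause was not tested, except that fits with fewer arrays have fewer degrees of freedom. The mean over several features of a gene was not run, as each gene had 1. No paired analysis was possible because each array came from a separate mouse and the labels pair no mice. For dim genes such as Prox1, the number of arrays and the signal over background limit what could be seen.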
